A study of Arabidopsis thaliana with 4 samples.

Results

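MSRB8 (AT4G21840), MSRB9 (AT4G21850) and APS3 (AT4G14680) are 3 genes of sulfur metabolism and redox repair that were called different between wild-type and *msil2/4* stems of *Arabidopsis thaliana*. They are 3 of the 234 genes that the deposited tables list as differing between the genotypes, 156 of them up-regulated and 78 down-regulated in the mutant. MSRB8 and MSRB9 stand in the up-regulated table and APS3 in the down-regulated one. The members were chosen by name among genes selected on the very RPKM values described here, so their levels are given as a description, with no test of the genotype difference. The study compared the wild type Col-0 with the double mutant *msil2/4*, which carries T-DNA insertions in MSIL2 and MSIL4, a pair of RNA-binding proteins related to animal Musashi. The labels name the mutant genotype a knockdown of MSIL2/4. All plants grew in growth chambers under long days without further treatment, and poly(A) RNA was taken from the basal part of mature inflorescence stems, with 2 libraries per genotype. The study's checklist describes replicates in general as biological. The sources used here do not say how many plants went into each library.

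MSRB8 and MSRB9 encode methionine sulfoxide reductases of the B type. Oxidants turn the methionine of proteins into a sulfoxide with either of a pair of mirror configurations at sulfur. MSRA enzymes reduce the S form and MSRB enzymes the R form, and the oxidised enzyme is usually regenerated by thioredoxin or glutaredoxin. APS3 encodes an ATP sulfurylase, the enzyme that opens sulfate assimilation by coupling sulfate to ATP to give adenosine phosphosulfate. That product is then reduced towards sulfide, cysteine, methionine and glutathione, or phosphorylated to the donor of sulfate groups used by sulfotransferases.

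MSRB8 and MSRB9 lie next to each other on the minus strand of chromosome 4, at chr4:11586980-11588373 and chr4:11591116-11592425 in TAIR10.1, with 2742 bases between them. They sit in a row of 4 MSRB genes of the same strand. MSRB7 (AT4G21830) begins 1437 bases beyond the 3′ end of MSRB8, and MSRB2 (AT4G21860) ends 7219 bases upstream of MSRB9. Only the middle pair of the row is listed: MSRB7 and MSRB2 are in neither table. APS3 lies on the minus strand of the same chromosome at chr4:8413263-8415650. Its last 16 bases overlap AT4G14675, a gene of the opposite strand, and its neighbours AT4G14675 and ELIP2 are in neither table.

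**Figure D1:**
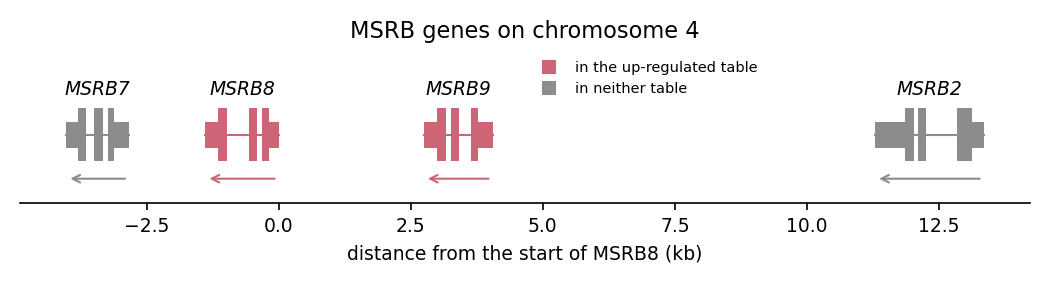
Map of the 4 neighbouring MSRB genes on chromosome 4, drawn to scale as the distance in kb from the start of MSRB8. Tall boxes are coding exon parts, low boxes untranslated parts, lines introns and arrows the direction of transcription, and the MSRB8 and MSRB9 pair (red) is in the up-regulated table while MSRB7 and MSRB2 (grey) are in neither.

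MSRB8, MSRB9 and MSRB7 keep the same reading frame around the cysteine codon near the end of the protein that carries the reductase activity in MSRB enzymes. The coding stretches below show how close the members are to each other and to MSRB7 there, since closeness decides whether short reads can be told apart. Each holds 21 codons, 5′ to 3′ on the minus strand, with the cysteine codon in capitals, at chr4:11587249-11587311 for MSRB8, chr4:11591393-11591455 for MSRB9 and chr4:11584583-11584645 for MSRB7.
MSRB8: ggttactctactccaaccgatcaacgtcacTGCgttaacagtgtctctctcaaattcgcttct
MSRB9: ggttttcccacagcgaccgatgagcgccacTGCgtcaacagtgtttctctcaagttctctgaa
MSRB7: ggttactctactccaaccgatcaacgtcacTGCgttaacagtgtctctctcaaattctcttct
MSRB7 differed from MSRB8 at 1 of these 63 bases and MSRB9 at 17. The cysteine is residue 128 of MSRB8 and residue 129 of MSRB9, in predicted proteins of 143 residues each.

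Over the whole predicted proteins, MSRB8 shared 137 of 143 aligned residues (95.8%) with MSRB7 and 110 of 142 (77.5%) with MSRB9. MSRB8 was thus closer to its unlisted neighbour than to the listed one. MSRB9 was nearly as close to MSRB2 (73.0%) as to MSRB7 (76.2%). Both members shared 39.0% with MSRB1, the most distant of the 9 MSRB proteins. MSRB1 and MSRB2, which are known as plastid enzymes, have 202 residues each in this annotation and are longer than the members.

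**Figure D2:**
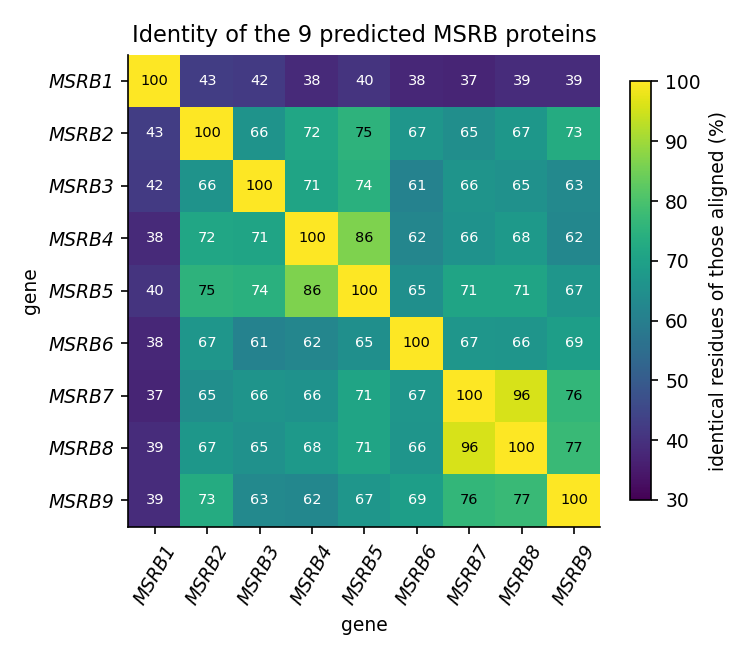
Percentage of identical residues among those aligned for each pair of the 9 predicted MSRB proteins, as a coloured matrix with the rounded value in each cell. MSRB7 and MSRB8 form the closest pair at 95.8%, and MSRB9 stands at 77.5% from MSRB8.

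This likeness bears on the read counts. Of the 804 windows of 75 nt in the MSRB8 transcript, the length of the study's reads, 148 (18.4%) were identical to a window of another gene's transcript, and that gene was MSRB7 in every case. The identical windows formed 2 runs of 216 and 80 bases, all of them coding. None of the 907 windows of MSRB9 and none of the 1867 windows of APS3 was identical to a window of another gene. With 2 mismatches allowed, MSRB9 still had none and APS3 had 3 (0.161%), shared with APS1. MSRB8 then had 295 (36.7%), shared with MSRB7. The study mapped its reads with the default settings of TopHat2. How reads that fit both MSRB7 and MSRB8 were then shared in quantification is not given in the sources used here. A part of the MSRB8 value may therefore come from MSRB7 and the split is uncertain. The MSRB9 value does not carry this uncertainty.

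The level of MSRB8 was close to 0 in Col-0 and above 25 RPKM in both *msil2/4* libraries. RPKM counts the reads of a transcript scaled by its length and by the mapped reads of the library, so that levels can be compared between genes. MSRB8 was at 0.20 RPKM in Col-0 replicate 1 and 1.24 RPKM in Col-0 replicate 2, against 25.90 and 38.19 RPKM in *msil2/4* replicates 1 and 2. Both mutant libraries lay far above both wild-type libraries. The Col-0 mean was 0.72 ± 0.74 RPKM (SD, n = 2). The *msil2/4* mean was 32.0 ± 8.69 RPKM (SD, n = 2), which is 44.5 times as high. That ratio rests on a very low denominator: across the single libraries it ran from 20.9 for the closest pair to 191 for the farthest. On the scale of log2(RPKM + 1), which damps ratios of low levels, the difference was 4.31 with an SE of 0.53. It ranked 15 among the 156 up-regulated genes, whose median difference was 2.03.

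MSRB9 showed the same direction at a higher level and with a wider spread. It was at 0.90 and 6.04 RPKM in Col-0 replicates 1 and 2, and at 29.36 and 89.78 RPKM in *msil2/4* replicates 1 and 2. The genotypes did not overlap, but the lower mutant library was only 4.86 times the higher wild-type library, while the most distant pair of libraries differed 99.8-fold. The wild type averaged 3.47 ± 3.63 RPKM (SD, n = 2). The mutant averaged 59.6 ± 42.7 RPKM (SD, n = 2), or 17.2 times as much. The log2(RPKM + 1) difference was 3.84 with an SE of 1.23, rank 23 of 156. Leaving out 1 library moved this difference between 2.90, without Col-0 replicate 1, and 4.79, without Col-0 replicate 2. It was 3.05 without *msil2/4* replicate 2 and 4.63 without *msil2/4* replicate 1.

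APS3 was an abundant transcript that was lower in the mutant. It was at 149.65 and 147.54 RPKM in Col-0 and at 52.31 and 49.98 RPKM in *msil2/4*. The 2 libraries of each genotype almost coincided and the genotypes lay far apart. Col-0 averaged 148.6 ± 1.49 RPKM (SD, n = 2). For *msil2/4* the average was 51.1 ± 1.65 RPKM (SD, n = 2), so the wild-type level was 2.91 times the mutant level, between 2.82 and 2.99 times for any pair of libraries. The log2(RPKM + 1) difference was -1.52 with an SE of 0.03. This was one of the smaller differences of its table, rank 62 of 78 by size against a median of -1.80. The authors' limit for listing was an absolute log2 fold change of 1.5. The log2 ratio of their RPKM values per genotype was -1.71 for APS3. Its mean in *msil2/4* still ranked 13 of 78. The whole stem section was sequenced, so less of a transcript per cell and fewer of the cells that hold it cannot be told apart, for APS3 or, in the other direction, for the MSRB pair.

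**Figure D3:**
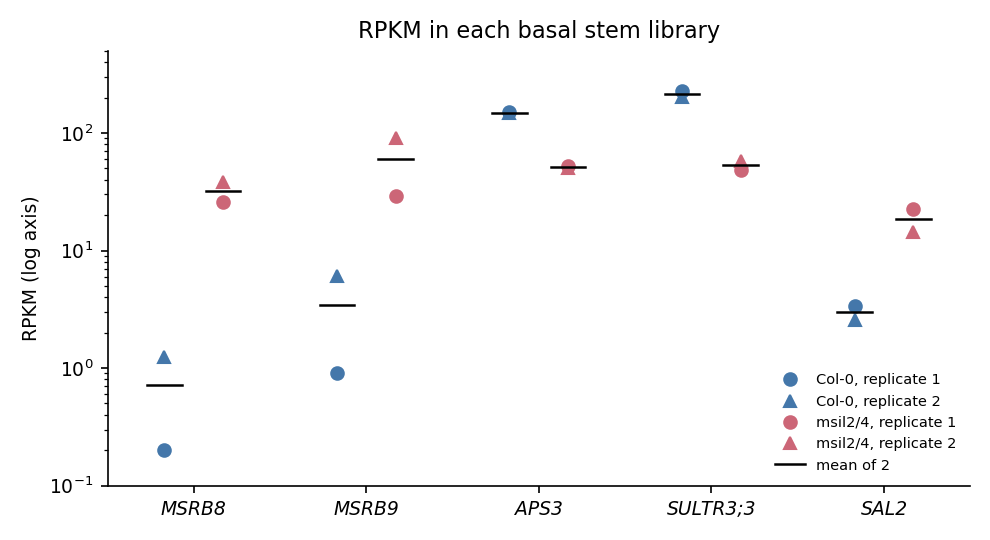
RPKM on a log axis in each of the 4 stem libraries for MSRB8, MSRB9, APS3 and 2 further sulfur genes of the tables, SULTR3;3 and SAL2. Circles are replicate 1, triangles replicate 2, blue Col-0, red *msil2/4* and bars the mean of 2 libraries; in all 5 genes the red points are separate from the blue, from 0.20 against 38.19 RPKM at the extremes of MSRB8 to nearly coinciding replicates in APS3.

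For all 3 members the libraries of the genotypes did not overlap. This held for 98.7% of the up-regulated table and 100% of the down-regulated table. The tables hold only genes that were called different, so nothing is read from that count. With 2 libraries against 2, an exact two-sided permutation test cannot go below p = 0.333. The plot of mean levels places MSRB8 among the genes nearly silent in Col-0, at rank 133 of 156 for its wild-type mean, and MSRB9 nearer the middle of the table, at rank 64.

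**Figure D4:**
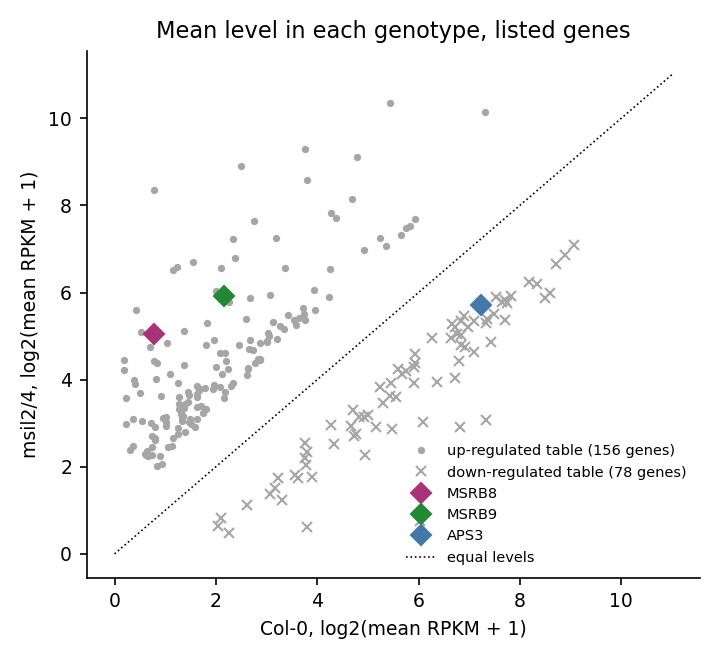
Mean level of the 234 listed genes in *msil2/4* against Col-0, both as log2(mean RPKM + 1), with dots for the up-regulated table, crosses for the down-regulated table and diamonds for the 3 members. MSRB8 (0.72 to 32.0 RPKM) and MSRB9 (3.47 to 59.6 RPKM) lie above the dotted line of equal levels, and APS3 (148.6 to 51.1 RPKM) lies below it.

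The members differed in how closely their replicate libraries matched. MSRB9 was higher in replicate 2 than in replicate 1 in both genotypes, 6.71-fold in Col-0 and 3.06-fold in *msil2/4*. MSRB8 had the same direction, 6.20-fold in Col-0 and 1.47-fold in *msil2/4*. Averaged over the genotypes, the absolute log2(RPKM + 1) difference between replicates was 1.73 for MSRB9, rank 6 of the 234 listed genes, and 0.72 for MSRB8, rank 57. For APS3 it was 0.04, rank 232, against a median of 0.49 over all listed genes. Among the up-regulated genes, 55 of 156 were higher in replicate 2 in both genotypes and 29 were higher in replicate 1 in both. Whether replicate numbers mark a shared harvest is not given in the sources used here.

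**Figure D5:**
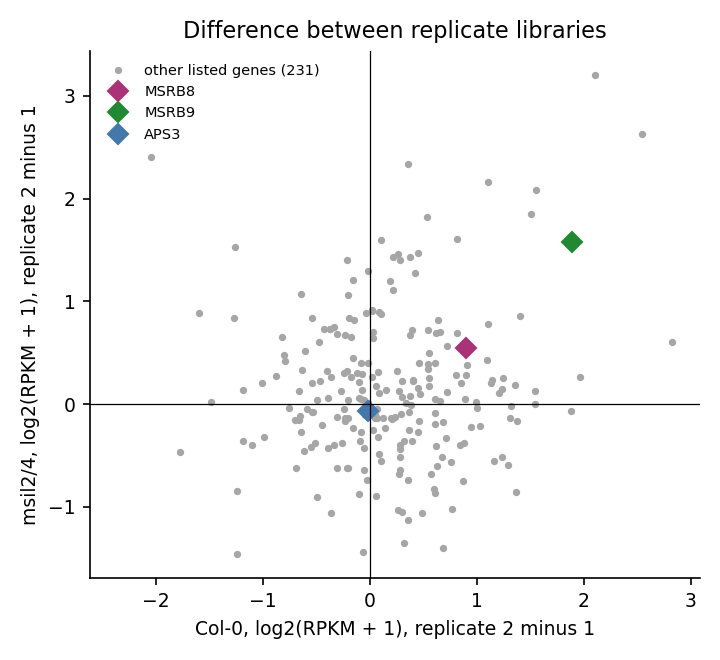
Difference between replicate libraries, replicate 2 minus replicate 1 on the log2(RPKM + 1) scale, in *msil2/4* against Col-0 for the 234 listed genes. MSRB9 lies far out in the upper right (1.89 in Col-0 and 1.58 in *msil2/4*), MSRB8 less so (0.90 and 0.54), and APS3 sits at the centre (-0.02 and -0.06).

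Relative to MSRB8, the level of MSRB9 in plain RPKM was lower in the mutant than in the wild type. MSRB9 was 4.50 and 4.87 times the level of MSRB8 in the Col-0 libraries, and 1.13 and 2.35 times in the *msil2/4* libraries. MSRB9 thus made up 81.8% and 83.0% of the summed RPKM of the pair in Col-0, and 53.1% and 70.2% in *msil2/4*. The log2 ratio of MSRB9 to MSRB8, taken from plain RPKM with no pseudocount, was 1.52 lower in the mutant (SE 0.53, n = 2 per genotype), and the ratios of the genotypes did not overlap. On the log2(RPKM + 1) scale used for the single genes the change was -0.46, much smaller, and the ratios of the genotypes overlapped. The change without a pseudocount spanned falls of 0.99 and 2.05 when *msil2/4* replicate 1 or 2 was left out. Part of the MSRB8 reads may belong to MSRB7, as described above. The ratio in Col-0 also rests on few reads. At the nominal depth of 30000000 reads per library, 0.20 RPKM of the 878-base MSRB8 transcript would be 5.27 reads, and 38.19 RPKM would be 1006 reads. The tables used here hold no counts and the mapped reads of each library are not given, so no counting interval can be set.

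Neighbouring pairs like MSRB8 and MSRB9 were found elsewhere in the tables. In 9 other cases a listed gene and the next protein-coding gene along the chromosome were in the same table, 7 of them up-regulated pairs, and 1 further pair was split between the tables. Among the listed genes held by the annotation, 20 had a neighbour in the same table, MSRB8 and MSRB9 included. No expected number of such pairs was computed, so nothing is read from these counts. The up-regulated pairs were mostly of related genes, such as PER37 and PER38, CRK6 and CRK7, and JAL33 and JAL34. This was not particular to the up-regulated table. The down-regulated pairs were EXLA3 and EXLA1, which share a family name, and COR47 and ERD10. The split pair, IAA3 and IAA17, also shares a family name.

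The genes whose 4 library values followed each member most closely were named by distance on the log2(RPKM + 1) scale after centring each gene. Since every gene of a table differs between genotypes, closeness reflects size of difference and replicate spread. For MSRB9 the nearest was PDF1.3, which encodes a defensin, at a distance of 0.53. CHI-B, which encodes a basic chitinase, followed at 0.68, and then came the ER body gene NAI2, the apyrase gene APY5 and MSRB8 itself at 1.11. PDF1.3 went from 13.23 and 39.56 RPKM in Col-0 to 240.6 and 869.48 RPKM in *msil2/4*, so that it too was higher in replicate 2 in both genotypes. For MSRB8 the nearest were the calmodulin-like gene CML47 at 0.55, the lipid transfer gene AT4G12490 at 0.56, NAI2, AT4G38080 and the lipid transfer gene AT5G55450. MSRB9 was only number 15 among the 155 other up-regulated genes by closeness to MSRB8. For APS3 the nearest were the oxidoreductase gene AT5G11330 at 0.09, the DnaJ-domain gene AT1G72416 at 0.13, the transcription factor genes BZIP63 and BZIP4 at 0.22 each, and NAC096 at 0.24. None of these 5 is a gene of sulfate assimilation. AT5G11330 was at 51.05 and 48.34 RPKM in Col-0 and at 16.26 and 16.82 RPKM in *msil2/4*, parallel to APS3 at a lower level.

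The other genes of the same pathways were counted by whether they were listed. Of 14 methionine sulfoxide reductase genes, MSRB8 and MSRB9 were in the up-regulated table and the other 12, all 5 MSRA genes included, were in neither. Of 4 ATP sulfurylase genes only APS3 was listed. Over 10 lists of sulfur and redox genes with 103 members, which also cover sulfate transport, the reduction and phosphorylation of adenosine phosphosulfate, cysteine, glutathione and methionine synthesis, sulfur starvation genes, thioredoxins, glutaredoxins and enzymes that remove reactive oxygen species, 3 genes were in the up-regulated table, 2 in the down-regulated table and 98 in neither. Leaving out the members, 2 of 100 were listed, beside 0.842% of the 27444 annotated protein-coding genes; with so few genes nothing is read from this share. Absence from the tables says only that a gene was not called, since its levels are not analysed here. The 15 stem cell type markers and MSIL2 and MSIL4 themselves were likewise in neither table, so neither the tissue nor the genotype could be checked against RPKM values.

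The 2 sulfur genes listed beside the members were SULTR3;3 (AT1G23090) and SAL2 (AT5G64000). SULTR3;3 belongs to a group of sulfate transporters, some of which import sulfate into plastids. SAL2 is a relative of the phosphatase SAL1, which breaks down the by-product of sulfate transfer. SULTR3;3 was at 226.92 and 201.48 RPKM in Col-0 and at 48.03 and 57.95 RPKM in *msil2/4*, with no overlap. Its wild-type mean was 4.04 times the mutant mean, and the log2(RPKM + 1) difference was -2.0 (SE 0.16), larger than that of APS3. SAL2 was at 3.40 and 2.57 RPKM in Col-0 and at 22.66 and 14.37 RPKM in *msil2/4*, 6.20 times higher on average, with a log2(RPKM + 1) difference of 2.27 (SE 0.35).

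APS3 carries a site for miR395, a microRNA that accumulates under sulfate shortage and is known to target ATP sulfurylase mRNAs. No small RNA was measured here, and the site is shown because it is a feature that APS3 shares with some but not all of its family. The TAIR10.1 annotation holds 6 mature miR395 loci with 2 sequences, given 5′ to 3′ with the seed (bases 2 to 8) in capitals, shown for the loci at chr1:9363206-9363226 and chr1:9364540-9364560.
miR395a: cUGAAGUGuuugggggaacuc
miR395b: cUGAAGUGuuuggggggacuc
The sites below are the best ungapped matches in the transcripts, 5′ to 3′, with bases complementary to miR395a in capitals and mismatches in lower case, at chr4:8414958-8414978 (APS3, minus strand), chr3:8113164-8113184 (APS1, plus strand) and chr5:17591121-17591141 (APS4, minus strand).
APS3: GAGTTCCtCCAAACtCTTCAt
APS1: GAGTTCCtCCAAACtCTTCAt
APS4: GAGTTCCtCCAAACACTTCAt
APS3 and APS1 carried the same 21 bases, with 3 mismatches to miR395a, and APS4 had 2. All 3 sites are in coding sequence. As few as 3 mismatches were found in 8 of 27440 protein-coding genes searched. The best match in APS2 had 8 mismatches, and in SULTR3;3 9. APS1 and APS4 carry the site and were in neither table, which says only that they were not called. Whether miR395 bears on the level of APS3 was not tested. The APS3 protein shared 83.8% of aligned residues with APS1, 74.8% with APS4 and 66.7% with APS2.

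The bases upstream of the 3 genes were searched for short motifs of known defence, sulfur and cold factors. These were the W-box core TTGAC, bound by WRKY factors, the as-1 core TGACG, bound by TGA factors, the core GAGAC of the sulfur-responsive element, the G-box CACGTG, the GCC-box GCCGCC and the DRE/CRT core CCGAC, on both strands, in the window from 250 bases before to 50 after the annotated start. The 200 bases before each start are shown, 5′ to 3′ on the minus strand, with every such motif in capitals, at chr4:11588374-11588573 for MSRB8, chr4:11592426-11592625 for MSRB9 and chr4:8415651-8415850 for APS3.
MSRB8: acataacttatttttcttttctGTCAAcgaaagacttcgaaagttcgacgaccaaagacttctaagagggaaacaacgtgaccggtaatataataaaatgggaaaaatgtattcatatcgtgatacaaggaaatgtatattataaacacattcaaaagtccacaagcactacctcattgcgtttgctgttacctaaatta
MSRB9: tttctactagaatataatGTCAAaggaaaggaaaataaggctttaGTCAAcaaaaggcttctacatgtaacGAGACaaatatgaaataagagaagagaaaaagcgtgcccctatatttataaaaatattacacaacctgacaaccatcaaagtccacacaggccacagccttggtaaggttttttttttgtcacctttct
APS3: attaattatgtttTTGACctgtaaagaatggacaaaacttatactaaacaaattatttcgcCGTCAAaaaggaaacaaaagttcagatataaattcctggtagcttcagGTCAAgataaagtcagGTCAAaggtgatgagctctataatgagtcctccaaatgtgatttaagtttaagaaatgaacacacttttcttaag
In the full 300-base window MSRB8 held 1 W-box core, MSRB9 3 and APS3 4, counting both strands. At least 1 was present in 50.5% of 27443 protein-coding promoters, at least 3 in 4.86% and at least 4 in 1.11%. The W-box core stood in 64.5% of the 155 up-regulated promoters and 47.4% of the 76 down-regulated promoters that could be read. APS3, which was lower in the mutant, held the most W-box cores of the 3. Whether any of these motifs acts in the stem was not tested. The as-1 core occurred once in MSRB9 and once in APS3, where it overlaps a W-box core, and is in 23.1% of all promoters. GAGAC occurred once in MSRB8 and once in MSRB9 but not in APS3, and is in 32.8% of all promoters. The G-box, the GCC-box and the DRE/CRT core were in none of the 3 windows and in 7.68%, 2.57% and 15.0% of all promoters. The best local alignment of the 250 bases upstream of MSRB8 and of MSRB9 covered 16 bases, of which 14 were identical.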

How the data were processed

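The authors sequenced single-end reads of 75 nt, nominally 30000000 per library per the labels, and aligned them to TAIR10 with TopHat2 2.0.7 and Bowtie2 2.3.4, with quantification by Cufflinks 2.2.1 and comparison by Cuffdiff, for which the submitters' processing notes give no version. The labels and the study's methods name different stranded kits. The authors deposited RPKM values per library, with 2 decimals, for the genes they called different, and 1 RPKM value per genotype. These differ from plain means: for APS3 they are 157.6 in Col-0 and 48.1 in *msil2/4*. A column of the authors' log2 fold changes was not used. The deposited headings give the limits for listing as an absolute log2 fold change of 1.5 and a P value of 0.05. The study's text names a false discovery rate for the second limit. A filter at 1 RPKM is described in the methods, yet 64 of 234 rows have a library under 1 RPKM.

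Differences are means of log2(RPKM + 1), *msil2/4* minus Col-0, with SEs from 2 libraries per genotype. Transcripts, predicted proteins, promoters and miR395 come from the TAIR10.1 RefSeq genome and annotation, which held 231 of the 234 listed genes. Proteins were aligned globally with Biopython 1.88 (BLOSUM62), using the longest coding sequence except for MSRB9, where the isoform of 143 residues was taken. Scripts ran in Python 3.11.15 and were tested on simulated data. The members and lists were chosen with earlier results of these data known. Named genes were the members, listed genes of the pathway lists, chromosome neighbours and, for each member, the 5 nearest rows of its table. The further pairs of adjacent genes were named after their values were seen. Alternatives were other pseudocounts, other scalings, a mean of at least 1 RPKM, each library left out, windows with 2 mismatches, windows of 50 nt and, added after the data were seen, libraries paired by replicate number. The MSRB9 to MSRB8 ratio used RPKM with no pseudocount.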

Additional observations from a re-analysis of the deposited data

How the results depend on the processing

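The genotype differences of MSRB8, MSRB9 and APS3 kept their direction under all 30 alternatives run. For most of these the direction was fixed in advance. Where the libraries of the genotypes do not overlap, another pseudocount or a library left out cannot reverse a difference. Pairing by replicate number and the filter on mean RPKM leave it unchanged. With a pseudocount of 0.1 or 0.01 in place of 1, the MSRB8 log2 difference was 5.64 or 5.94, since its Col-0 level lies below 1 RPKM. Scaling all libraries to the same median over the listed rows shifts every log2 ratio of plain RPKM by -1.51, and the log2(RPKM + 1) differences of low genes by less, because more listed genes were higher than lower in *msil2/4*. MSRB8 was then at 3.37, MSRB9 at 2.62 and APS3 at -3.01. With library values rescaled to the authors' value per genotype, APS3 was at -1.69. Leaving out each library gave ranges of 3.86 to 4.76 for MSRB8, 2.90 to 4.79 for MSRB9, -1.55 to -1.49 for APS3 and -2.05 to -0.99 for the change of the MSRB9 to MSRB8 log2 ratio. That change was -0.46 with a pseudocount of 1, which lowers the ratio most where both levels are low, as in Col-0. The ratios of the genotypes then overlapped. The share of MSRB8 windows found in another transcript was 36.7% with 2 mismatches allowed and 23.9% with windows of 50 nt. All 3 members stayed free of overlap under the median scaling. Pairing the libraries by replicate number, a replicate block added after the data were seen, leaves the differences at 4.31, 3.84 and -1.52 and the ratio change at -1.52, with SEs of 0.18 for MSRB8, 0.15 for MSRB9, 0.02 for APS3 and 0.47 for the ratio. The numbers are not said to mark a shared harvest. Depth limits MSRB8 most, with 0.20 RPKM in 1 Col-0 library, and with 2 libraries per genotype no spread is well known.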
